A study of Mus musculus with 2 samples.

Results

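Long-span sole circular RNAs (circRNAs) of small intestinal crypts are exonic circRNAs whose gene name entry occurs once among the exonic circRNAs of the table and whose ends lie at least 7000 bases apart. The choice used the positions and names of the circRNAs and not their read counts. Listing itself rests on reads, so whether an entry occurs once is not independent of them. There were 226 long-span sole circRNAs among 1132 circRNAs, which is 19.96% of the table and 21.4% of its 1054 exonic circRNAs.

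A circRNA is a closed loop that forms in back-splicing, when a downstream splice donor is joined to an acceptor that lies before it in the gene. The introns between the joined exons are usually removed, so a loop can span a long stretch of the genome and still be a short RNA. A read that crosses the backward join is a back-splice read, and it is the evidence on which each circRNA is listed. CircRNAs lack free ends and are known to be more stable than linear transcripts, and long introns on either side of the joined exons are a known feature of many host genes.

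The study sequenced total RNA of small intestinal crypts of wild-type mice, with the titles naming crypts and the cell type entry naming stem cells. Crypts are the epithelial pockets in which intestinal stem cells divide. The series had 1 group of 2 libraries, replicates 1 and 2, no treatment and no other genotype, and no age, strain or sort was given. The listed back-splice reads totalled 3546 for replicate 1 and 4441 for replicate 2. Levels are in CPM, each count scaled to that total, and a single read equalled 282 CPM in the first library and 225 CPM in the other. A mean stands with its SD (n = 2 libraries), and the labels do not say that these came from separate animals, so the SD may be technical. A count refers to 1 junction per circle, and no length correction was applied. In bulk RNA, fewer cells of a type and less RNA per cell cannot be told apart.

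Because each circRNA rests on its junction, the back-splice junctions of 10 leading circles that lie wholly in coding sequence are shown. Each is 60 bases of the transcript strand (GENCODE M21, mm10), with the last 30 bases of the final exon in lower case and the first 30 bases of the first exon, to which it is joined, in capitals. Hibadh, Gmds and Cryl1 are metabolic enzyme hosts, Rnf169 a nuclear one, Rabep1, Snx13 and Cd2ap membrane traffic hosts, and Spred2, Mark3 and Ccdc6 are linked to signalling.
Hibadh: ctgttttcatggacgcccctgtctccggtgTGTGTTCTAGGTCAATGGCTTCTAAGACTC
Rnf169: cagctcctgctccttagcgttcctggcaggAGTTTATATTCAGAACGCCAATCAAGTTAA
Gmds: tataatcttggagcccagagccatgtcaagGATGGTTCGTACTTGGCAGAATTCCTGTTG
Rabep1: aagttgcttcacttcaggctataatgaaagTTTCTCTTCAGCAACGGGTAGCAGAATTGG
Cryl1: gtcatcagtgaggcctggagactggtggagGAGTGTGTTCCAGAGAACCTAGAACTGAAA
Spred2: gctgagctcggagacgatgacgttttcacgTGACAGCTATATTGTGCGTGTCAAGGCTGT
Snx13: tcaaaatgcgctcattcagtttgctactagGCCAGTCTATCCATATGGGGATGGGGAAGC
Cd2ap: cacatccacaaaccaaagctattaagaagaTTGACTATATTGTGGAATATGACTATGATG
Mark3: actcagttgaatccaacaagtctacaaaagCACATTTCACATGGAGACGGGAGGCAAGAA
Ccdc6: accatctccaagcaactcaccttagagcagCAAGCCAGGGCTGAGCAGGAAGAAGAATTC
The Gmds loop was the shortest of the first 5 circles by level, with 243 spliced bases out of a span of 9263. Its full sequence by the annotation runs from the first base of exon 2 to the last base of exon 4. The 30 bases on each side of the back-splice junction are in capitals. Only the junction was counted, so splicing inside the loop was not observed.
Gmds circle: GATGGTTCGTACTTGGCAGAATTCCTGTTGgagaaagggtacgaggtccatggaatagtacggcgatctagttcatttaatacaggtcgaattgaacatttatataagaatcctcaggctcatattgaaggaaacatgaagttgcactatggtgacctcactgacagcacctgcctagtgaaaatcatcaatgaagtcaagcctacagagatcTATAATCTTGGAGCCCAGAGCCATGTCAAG
Among the 219 long-span sole circRNAs at annotated splice sites, the base before the junction was G in 183 (83.6%), against 80.4% of the 1007 exonic circRNAs at splice sites.

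Few long-span sole circRNAs were abundant. They had a median of 3 reads over both libraries (quartiles 2 and 5, highest 55), which was also the median of all exonic circRNAs (quartiles 2 and 6, highest 156). Their median mean level was 338 CPM, against 423 CPM for all exonic circRNAs, and 29 (12.8%) reached 10 reads, against 171 of 1054 (16.2%). A circle with 3 reads has a mean of 338 CPM if all lie in replicate 2 and 423 CPM if all lie in replicate 1. The gap between these medians is thus not a difference in the number of reads. The long-span sole circRNAs held 476 reads in replicate 1 and 700 in replicate 2. These were 13.4% (95% Clopper-Pearson interval 12.3 to 14.6%) and 15.8% (14.7 to 16.9%) of the listed reads, a mean of 14.6 ± 1.65% (n = 2). Only the Fryl circle stood among the 25 circRNAs of the table with the highest level, and 10 long-span sole circRNAs stood among the first 100. The 5 leading circles held 16.4% of the reads of the 226, and the 25 leading circles held 41.2%.

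Fryl, which encodes a relative of the Furry protein that in Drosophila acts with NDR kinases in cell shape, led the set. Its circle of exons 2 to 3 (ENSMUSG00000070733, chr5:73194986-73221072 in mm10, minus strand) had 18 reads in replicate 1 and 37 in replicate 2, or 6704 ± 2302 CPM. Replicate 2 was the higher library, and the difference did not pass the test between libraries (two-sided exact binomial test against the library totals, p = 0.434 after Benjamini-Hochberg adjustment over 1132 circRNAs). The second circle is entered under the names Fgfr2 and Fam53b, and both of its ends are edges of exons 2 and 3 of Fam53b (ENSMUSG00000030956, chr7:132771578-132779385, minus strand). No Fgfr2 transcript had an exon edge at either end. It had 18 and 22 reads, 5015 ± 86.5 CPM, with nearly equal levels in both libraries.

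Hibadh, Gmds, Cryl1, Galnt2 and Itpk1 are enzyme genes among the leading hosts, set side by side here by their known roles and not as a tested group. Hibadh (ENSMUSG00000029776, chr6:52619977-52630349, minus strand), the mitochondrial 3-hydroxyisobutyrate dehydrogenase of valine breakdown, had 15 and 18 reads in a circle of exons 2 to 4 (4142 ± 125 CPM). Gmds (ENSMUSG00000038372, chr13:32225135-32234397, minus strand), the dehydratase that starts GDP-fucose synthesis from GDP-mannose, had 13 and 19 reads in exons 2 to 4 (3972 ± 433 CPM). Both were seen at similar levels in the libraries, since their SD was small against the mean. Cryl1 (chr14:57303593-57313129), a gulonate dehydrogenase gene, had 13 and 9 reads in exons 4 to 5 (2846 ± 1159 CPM). Galnt2, which encodes an enzyme that starts mucin-type O-glycosylation, had 7 and 6 reads in exons 2 to 3 (1663 ± 441 CPM). Itpk1, an inositol phosphate kinase gene, had 9 and 3 reads in exons 3 to 4 (1607 ± 1317 CPM), so replicate 1 was the higher library there.

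Among hosts of the nucleus, Rnf169 came first. It encodes a RING finger protein of the response to DNA double-strand breaks (ENSMUSG00000058761, chr7:99935162-99955540, minus strand), and its circle of exons 2 to 4 had 12 and 21 reads (4056 ± 951 CPM). Hnrnpll, a splicing regulator gene known from lymphocytes, had 5 and 9 reads in a circle of exons 2 to 7 (1718 ± 436 CPM). Tasp1, the protease gene whose product cleaves the MLL methyltransferase, had 4 and 9 reads (1577 ± 635 CPM). All 3 had more reads in replicate 2, which was also the library with more listed reads. Kdm4c, a histone demethylase gene, had 5 and 7 reads in exons 6 to 8 (1493 ± 118 CPM).

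Hosts of membrane traffic and transport formed another group. Rabep1 (chr11:70874746-70884968, plus strand) encodes rabaptin-5, a Rab5 effector of endosome fusion, and had 13 and 10 reads in exons 2 to 3 (2959 ± 1000.1 CPM). Snx13, a sorting nexin gene, had 7 and 10 reads in exons 2 to 5 (2113 ± 196 CPM). Cd2ap, which encodes an adaptor between membrane proteins and actin, had 5 and 11 reads in exons 2 to 3 (1943 ± 754 CPM). Rabep1 was higher in replicate 1, and Snx13 and Cd2ap were higher in replicate 2. Atp9b, a phospholipid flippase family gene, had 2 and 10 reads (1408 ± 1193 CPM).

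Spred2, Mark3, Ccdc6, Ppp1r13b and Tbck are hosts linked to signalling. Spred2, whose product restrains RAS to ERK signalling, had 9 reads in each library in a circle of exons 2 to 5 (chr11:19998120-20008477, 2282 ± 362 CPM). Mark3, a kinase gene of microtubule regulation and polarity, had 4 and 11 reads in exons 2 to 3 (1802 ± 954 CPM). Ccdc6, a coiled-coil gene known as a fusion partner of RET, had 5 and 9 reads (1718 ± 436 CPM). The gap between Mark3 and Ccdc6 was smaller than either SD. Ppp1r13b, which encodes the p53-binding protein ASPP1, had 2 and 10 reads (1408 ± 1193 CPM), and Tbck, a TBC domain kinase-like gene, had 8 and 4 in exons 21 to 23 (1578 ± 958 CPM). Fndc3a had 4 and 12 reads (1915 ± 1113 CPM), and Mkln1, which encodes muskelin of the CTLH ubiquitin ligase, had 7 and 6 (1663 ± 441 CPM). Tmem56 had 3 and 11 reads (1661 ± 1153 CPM) and Fam118b had 5 and 6 (1381 ± 41.7 CPM), the smallest SD among the leading 25.

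**Figure D1:**
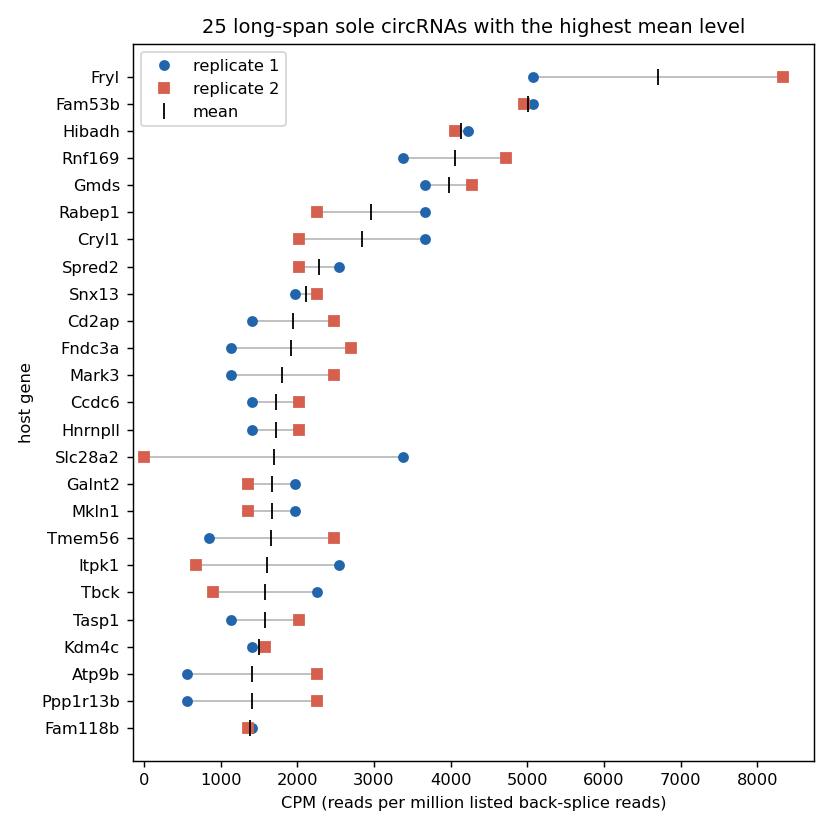
Levels in CPM of the 25 long-span sole circRNAs with the highest mean, by host gene, with a circle for replicate 1, a square for replicate 2 and a tick for the mean. Fryl leads at 6704 CPM, and Slc28a2 is the circle listed at 0 in replicate 2.

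The circle entered under Gm14085 and Slc28a2 was the exception to presence in both libraries among the leading 25. Slc28a2 encodes a concentrative nucleoside transporter. This feature (chr2:122452484-122518040) had 12 reads, all in replicate 1, and replicate 2 lists 0. It was the 1 long-span sole circRNA whose reads differed between the libraries (adjusted p = 0.00664, exact binomial test), where 18 of all 1132 circRNAs (1.59%) and 1.14% of the exonic ones did. Of all circRNAs, 1.15% were higher in replicate 1, as Slc28a2 was, and 0.442% in replicate 2. Its start was an exon edge of Slc28a2 and its end an exon edge of Gm14085, a nearby gene on the same strand, and no annotated transcript held both ends. The longest transcripts of these genes were 95.9% identical over 3748 aligned bases, and how reads shared by near copies were assigned is not given in the sources used here. At an unadjusted p under the 0.05 threshold, 15 of the 226 (6.64%) differed, against 106 of 1132 (9.36%) in the table. This test sets 1 library against another, not conditions, and measures counting error only.

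Listing in both libraries held for 60 of the 226 (26.5%, interval 20.9 to 32.8%), where 30.5% of all exonic circRNAs and 29.2% of the whole table did. A further 68 (30.1%) were listed in replicate 1 alone and 98 (43.4%) in replicate 2 alone, against 30.7% and 38.8% of all exonic circRNAs. The short-span sole circRNAs stood at 115 of 409 (28.1%, 23.8 to 32.7%) and the exonic circRNAs of entries with several at 146 of 419 (34.8%, 30.3 to 39.6%). Differences between these groups were not tested, and the groups themselves depend on which circles of a host were listed. Among the long-span sole circRNAs with at least 10 reads, 28 of 29 were in both libraries, the exception being Slc28a2. With 5 to 9 reads it was 25 of 40 (62.5%, interval 45.8 to 77.3%), with 3 to 4 reads 7 of 64 (10.9%), and with 2 reads 0 of 83. In all exonic circRNAs the shares in these 4 bands, from most reads to fewest, were 94.7%, 67%, 7.87% and 0.29%. None of the 83 circles with 2 reads had 1 in each library, and whether a listed 0 hides a single read cannot be told, so no fold is given against it.

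**Figure D2:**
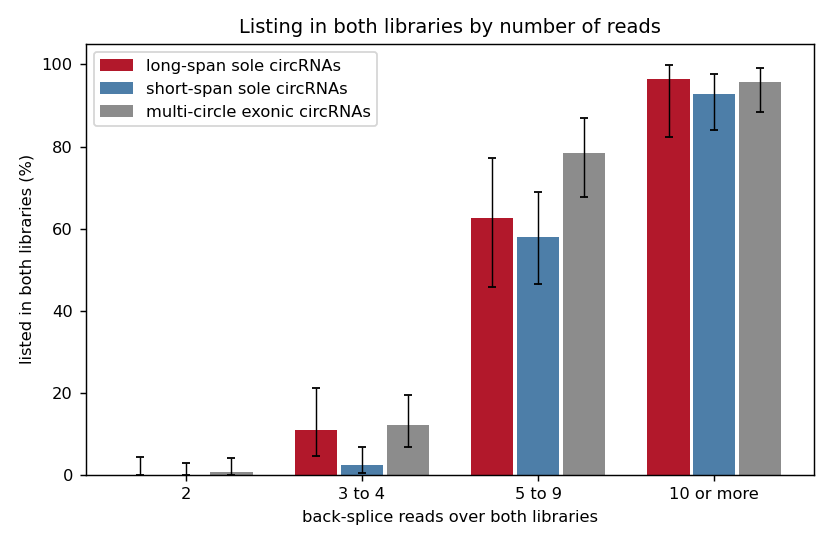
Share of circRNAs listed in both libraries (%) by back-splice reads over both libraries, for long-span sole, short-span sole and multi-circle exonic circRNAs, with 95% Clopper-Pearson intervals as bars. The share goes from 0 of 83 long-span sole circRNAs with 2 reads to 28 of 29 with 10 or more. It goes from 0 of 130 to 65 of 70 in the short-span sole group and from 1 of 132 to 69 of 72 in the multi-circle group.

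The 60 circles in both libraries had a median of 9 reads. Of these, 34 had the higher CPM in replicate 1 and 26 in replicate 2, and 46 lay within 2-fold. Among the 28 with at least 10 reads, 20 lay within 2-fold, and the ratio of replicate 2 to replicate 1 ranged from 0.266 for Itpk1 to 3.99 for Ppp1r13b and Atp9b. The other circles outside 2-fold were those of Tmem56, Fndc3a and Mark3, higher in replicate 2, and Tbck and Dnmbp, higher in replicate 1. Dnmbp, a guanine nucleotide exchange factor gene for Cdc42, had 7 and 3 reads and was named after its values were seen. None of these 8 passed the test, with adjusted p from 0.433 to 0.435.

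**Figure D3:**
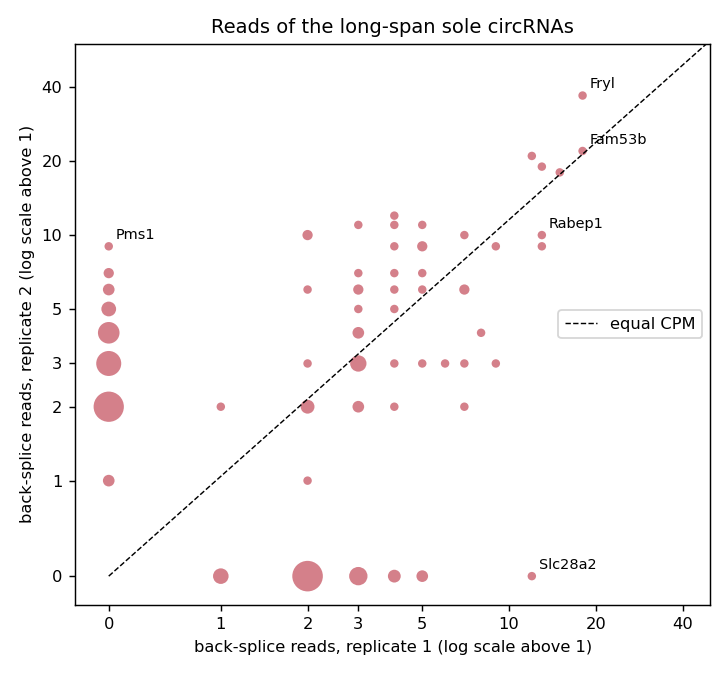
Back-splice reads of the 226 long-span sole circRNAs in replicate 1 (horizontal axis) and replicate 2 (vertical axis), log scale above 1, with point area growing with the number of circRNAs at that pair of counts and a dashed line for equal CPM. Most circRNAs lie at 0 on an axis, 166 being listed in 1 library, and Slc28a2 lies farthest out on the horizontal one.

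Of the 166 circles listed in 1 library, 16 had at least 5 reads. Pms1, a mismatch repair gene, had 9 reads in replicate 2 alone, the most after Slc28a2. Fbxl17 and Uap1 had 7 in replicate 2 alone. Fbxl17 encodes an F-box protein of a ubiquitin ligase and Uap1 the enzyme that makes UDP-GlcNAc. None of these 3 passed the test (adjusted p from 0.263 to 0.401). Pms1 and Uap1 were chosen after their values were seen.

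The ends of long-span sole circRNAs fitted the annotation closely. A single transcript held both ends as splice sites in 219 of 226 (96.9%, interval 93.7 to 98.7%), against 1007 of 1054 exonic circRNAs (95.5%). All hosts were protein-coding genes, which the matching preferred where an entry named several genes, and the 226 circles came from 221 hosts. Of the other 7, 5 had ends in different transcripts and 2 (Mboat1 and Eipr1, the latter entered as Tssc1) had 1 end at an exon edge. Besides Slc28a2, the features entered under H2-D1 with H2-Q1, Clca4b with Clca4a, and Clca4c-ps with Clca4b joined exon edges of a pair of genes of the same family, with 1 read each in replicate 1. H2-D1 and H2-Q1 are histocompatibility genes, Clca4a and Clca4b encode chloride channel accessory proteins, and Clca4c-ps is annotated as a pseudogene. The longest transcripts of H2-D1 and H2-Q1 were 87.0% identical over 693 aligned bases. The transcripts of Clca4a and Clca4b were 95.5% identical, and those of Clca4b and Clca4c-ps 94.4%. Pdpr had its ends in different transcripts of the same gene, with 0 and 2 reads. Apart from Slc28a2, these hosts were named after their values were seen.

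By the annotation, the long spans were made of introns. Exon numbers, spliced lengths and GC content here are those of all annotated exons between the ends, since splicing inside the circles was not observed. The median span was 12388 bases over all 226 (quartiles 9394 and 19518), and the median spliced length of the 219 circles at splice sites was 397 bases (quartiles 322 and 554.5). Exons filled a median of 3.39% of the span. The longest intron inside the circle had a median of 8156 bases and took at least 50% of the span in 164 of the 219 (74.9%). In the Fryl circle a single intron of 25794 bases made up 98.9% of the span, and in that of Fndc3a an intron of 31542 bases made up 99.3%. Because the span chose the set, these lengths are a description. The spliced length, which the choice did not use directly, had a median of 328.5 bases in short-span sole circRNAs and 402 in the multi-circle ones.

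**Figure D4:**
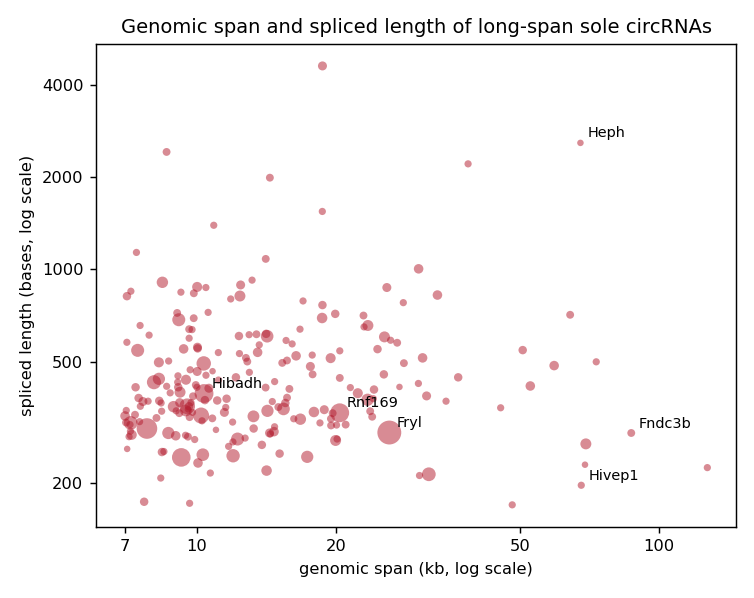
Genomic span (kb, log scale) against spliced length by the annotation (bases, log scale) of the 219 long-span sole circRNAs at splice sites, with point area growing with the reads over both libraries. Spans run to 127002 bases while the median spliced length is 397 bases, and the Fryl circle holds 293.

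A circle held a median of 3 annotated exons, 166 of 219 (75.8%) held 2 to 4, and 29 (13.2%) held 6 or more. None was a single exon (the minimum span bears on this), whereas 50 of 396 short-span sole circRNAs were. The greatest number of exons was 14, in a circle of Heph, the gene of the iron oxidase hephaestin, with 2594 spliced bases (chrX:96462891-96530425) and 1 read in replicate 1. There were 10 circles that reached 1000 spliced bases, with at most 6 reads each. Of these 10, 8 were listed in replicate 1 alone, 2 in replicate 2 alone and none in both. Among all exonic circRNAs of that length, 20 were listed in replicate 1 alone, 10 in replicate 2 alone and 5 in both. The median spliced length was 356.5 bases for circles in both libraries, 415 for those in replicate 1 alone and 412 for those in replicate 2 alone. For all exonic circRNAs it was 360.5, 371 and 370.5 bases.

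Circles that began at exon 2 were frequent. They made up 106 of 219 (48.4%, interval 41.6 to 55.2%), against 138 of 396 (34.8%, 30.2 to 39.8%) short-span sole circRNAs, 122 of 392 (31.1%, 26.6 to 36.0%) multi-circle ones and 366 of 1007 (36.3%) exonic circRNAs in all. The share was 42 of 68 (61.8%, 49.2 to 73.3%) among long-span sole circRNAs with at least 5 reads and 64 of 151 (42.4%, 34.4 to 50.7%) among those with fewer. In all exonic circRNAs it was 42.4% and 33.0%. These differences between groups were not tested. Exon 2 is the earliest start that the matching accepts, in every group. The span chose the set, and whether that bears on these shares was not tested. Hibadh, Rnf169, Gmds, Rabep1, Spred2 and Snx13 were among the hosts whose circle began at exon 2. The circles of Cryl1, Kdm4c and Tbck began at later exons, and Itpk1 had a circle that began at exon 3 and another that began at exon 2. The share was 48%, 47.4% and 51.0% for spans of 7000 to 9999 bases, of 10000 to 19999 and of at least 20000.

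**Figure D5:**
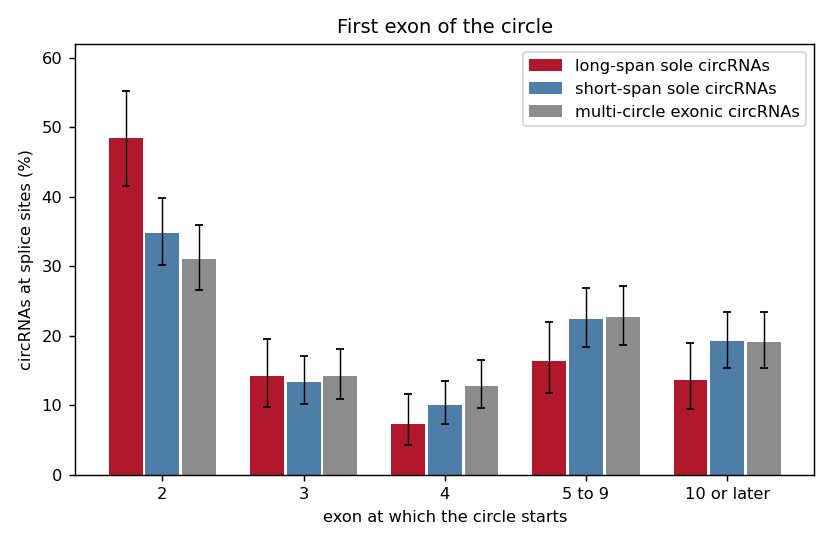
Share (%) of circRNAs at splice sites by the exon at which the circle starts, for long-span sole, short-span sole and multi-circle exonic circRNAs, with 95% Clopper-Pearson intervals as bars. Exon 2 starts 48.4%, 34.8% and 31.1% of the circles in these groups.

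The introns outside the circle were long as well. The upstream intron had a median of 14733 bases and the downstream intron of 11641, against 6707.5 and 4630 in short-span sole circRNAs and 12684.5 and 9751 in multi-circle ones. For Gmds they measured 103984 and 97035 bases, for Hibadh 9811 and 62064, and for Rabep1 29737 and 2042. The circle of Nmt1, an N-myristoyltransferase gene, had short ones, 3102 and 1093 bases, and was chosen after its values were seen. Taken once per circle, the host gene had a median length of 98673 bases, near the 101548 for multi-circle circRNAs and above the 61124 for short-span sole ones. These differences were not tested, and a long span requires a long host. The GC content of the spliced circle had a median of 47.5%, against 50% in short-span sole and 49.1% in multi-circle circRNAs.

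The annotated start codon lay inside 44 of 219 circles (20.1%, interval 14.99 to 26.02%), against 153 of 1007 exonic circRNAs (15.2%). A further measure was whether a circle lay wholly in coding sequence, which held for 168 circles (76.7%). Of these 168, 64 (38.1%, 30.7 to 45.9%) had a length that was a multiple of 3. With all annotated exons kept, the reading frame would continue across the junction of these. Among all wholly coding exonic circRNAs, 282 of 822 (34.3%) did, which lies inside that interval. The Gmds circle, with 243 bases, and that of Hibadh, with 393, were among them.

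The median number of reads was the same in each class of span. Spans of 7000 to 9999 bases (77 circles), 10000 to 19999 (96) and at least 20000 (53) had a median of 3 reads, and 22, 25 and 13 of them were in both libraries (28.6%, 26.04% and 24.5%). The median mean levels were 338, 423 and 338 CPM, the levels of 3 reads in replicate 2 alone (338) or in replicate 1 alone (423). The longest span, 127002 bases, belonged to a circle of exons 2 to 3 of Foxp1, a forkhead transcription factor gene (chr6:99308344-99435345), with 2 reads in replicate 1 alone. Fndc3b followed with 86970 bases and 3 reads in replicate 2, then a second Fryl circle with 73056 bases and 2 reads in replicate 1. An Itpk1 circle of 69379 bases was the 1 of the 10 longest in both libraries, with 4 and 5 reads (1127 ± 1.53 CPM). Gphn, which encodes gephyrin, Hivep1, a zinc finger gene, Heph and Slc28a2 had spans of 69082, 67814, 67535 and 65557 bases. The 10 longest closed with a Tbck circle of 64163 bases (0 and 3 reads) and that of Fbxw11, an F-box gene of a ubiquitin ligase, of 59250 bases (0 and 6 reads).

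Just inside the minimum of 7000 bases stood Dcaf17 (7001 bases, 3 reads in each library), Otulin (7035, 0 and 3), Rcan3 (7066, 0 and 2) and Baiap2l1 (7068, 2 and 2). Otulin encodes a deubiquitinase of linear chains. Just outside stood Mipol1 (6936 bases, 0 and 3 reads), Eed (6831, 16 and 26), Dcbld1 (6821, 0 and 3), Nploc4 (6769, 0 and 2) and Cog5 (6673, 3 and 4). Eed, a Polycomb subunit gene, had more reads than each of those named just inside.

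The name entry that defines a sole circRNA was not always the host gene. Several genes were named for 38 of the 226 entries, and the other names numbered 42, all on the strand of the host, chiefly processed pseudogenes (11) and entries of the annotation type TEC (13). For 19 of the 226, the host had another exonic circRNA under a different entry, and 207 hosted no other. Of these 19, 16 shared 1 end exactly with another exonic circle of the host, over 12 hosts. Itpk1 shows this: its circles of exons 3 to 4 and 2 to 4 ended at the same base, chr12:102606089 on the minus strand, and had 9 and 3 against 4 and 5 reads. The junctions below share the lower-case side, the end of exon 4, and differ in the capitals, the starts of exons 3 and 2.
Itpk1 exons 3 to 4: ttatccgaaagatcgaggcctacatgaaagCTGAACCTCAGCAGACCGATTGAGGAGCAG
Itpk1 exons 2 to 4: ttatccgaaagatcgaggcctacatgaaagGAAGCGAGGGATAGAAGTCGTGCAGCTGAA
In Tbck, circles of exons 21 to 23 (8 and 4 reads) and 21 to 25 (0 and 3 reads) shared the start of exon 21. The 2 Fryl circles shared the start of exon 2, with 18 and 37 reads when they ended at exon 3 and 2 and 0 when they ended at exon 4. Elf2, an ETS factor gene, had 0 and 2 reads in its long-span circle of exons 2 to 5, and 10 and 13 in a circle of exons 2 to 4 under another entry. For Heph, the circle of exons 11 to 13 under another entry had 14 and 8 reads against 1 and 0. Fancl, a Fanconi anaemia pathway gene, had 0 and 4 reads in exons 2 to 7 and 0 and 2 in exons 2 to 5. Elf2 and Fancl were chosen after their values were seen.

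The genomic spans of the R3hdm1 and Fndc3b circles were the ones that enclosed an annotated miRNA hairpin of RefSeq (GRCm38.p6). These hairpins were Mir128-1 and Mir3092, each on the strand of the host. Only the span was searched, so whether a hairpin lies in an exon of the circle was not asked. Annotated exons made up 1005 of 30182 bases for R3hdm1 and 292 of 86970 for Fndc3b. The entry of Ap3b1 also names Gm25109, of type miRNA in GENCODE M21, which was not among these hairpins. The R3hdm1 circle had 0 and 6 reads and that of Fndc3b 0 and 3, so both were listed in replicate 2 alone. The mature miRNAs are shown with the seed, bases 2 to 8, in capitals, because they name the RNAs inside the spans. Their levels were not analysed here, and R3hdm1 and Ap3b1 were chosen after their values were seen.
mmu-miR-128-1-5p: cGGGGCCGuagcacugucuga
mmu-miR-128-3p: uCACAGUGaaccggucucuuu
mmu-miR-3092-3p: gAAUGGGGcuguuuccccucc
mmu-miR-3092-5p: aGGGGAAAaugccuuucuccca
miR-128 is known as a miRNA of the nervous system.

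Hosts were then counted over lists of genes. The lists are partial, so hosts of the same role can lie outside them, and each lead named is within its list. Of the 791 hosts of exonic circRNAs, 221 (27.9%) hosted a long-span sole circRNA, and the lists are read beside that share. The median level over the long-span sole circRNAs of a list is followed by that over all exonic circRNAs of the same list. Kinases gave 7 hosts of 85 genes (28 hosts of exonic circRNAs of any kind), led by Mark3, the focal adhesion kinase gene Ptk2 (3 and 2 reads) and Vrk2 (3 and 0), with median levels of 282 and 450.3 CPM. Vesicle traffic gave 7 of 58 (21 hosts), led by Rabep1, Snx13 and the endocytic scaffold gene Itsn1 (0 and 4 reads), with a median of 423 CPM in both. Cytoskeleton and junction genes gave 6 of 62 (17 hosts), led by the kinesin gene Kif13b (7 and 2 reads), Lpp (2 and 6) and the myosin gene Myo1d (4 and 2), with medians of 536 and 563 CPM. Channels and transporters gave 5 of 43 (14 hosts), led by Atp9b, the glucose transporter gene Slc5a1 (3 and 5 reads) and the choline transporter gene Slc44a1 (3 and 3), with medians of 761 and 450.3 CPM. The nucleoside transporter gene Slc28a2 (12 and 0 reads, mean 1692 CPM) was outside this list and stood above Atp9b (1408 CPM).

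Transcription factors gave 4 hosts of 63 genes (8 hosts of exonic circRNAs), with 5 circles, among them Zmiz1 (3 and 0 reads) and the Foxp1 circles. Of these 5, 0 were in both libraries, where 3 of the 13 exonic circRNAs of the list were, and both medians were 282 CPM. Npas2, a transcription factor gene outside this list, had 4 and 7 reads and was named after its values were seen. Ubiquitin ligases gave 3 of 55 (13 hosts), namely Rnf169, Fbxl17 and Fbxw11, with medians of 788 and 507 CPM. Regulators of small GTPases gave 3 of 69 (18 hosts), namely Arhgef28, Sipa1l1 and Asap2, with medians of 338 and 380.4 CPM. Of these 3, 0 were in both libraries, where 9 of the 32 exonic circRNAs of the list were. Dnmbp, the exchange factor gene described above, was outside this list and had 7 and 3 reads, so it was in both. Chromatin regulators gave 3 of 78 (22 hosts), namely Kdm4c, the methyltransferase gene Nsd1 (2 and 0 reads) and the dioxygenase gene Tet3 (2 and 0), with medians of 282 and 380.4 CPM. RNA binding and decay gave 3 of 71 (19 hosts), namely Rbm33 (5 and 0 reads), the splicing regulator gene Mbnl1 (0 and 4) and the epithelial splicing regulator gene Esrp1 (2 and 0), with a median of 450.3 CPM in both. Of these 3, 0 were in both libraries, where 12 of the 33 exonic circRNAs of the list were. Hnrnpll, the splicing regulator gene described above, was outside this list and had 5 and 9 reads, so it was in both. Phosphatases gave 2 of 26 (4 hosts), namely Ppm1h (3 and 7 reads) and Ptprf (0 and 3), with medians of 774 and 845 CPM. Often reported circRNA hosts gave 4 of 36 (14 hosts), led by Ptk2, Ankib1 (2 and 3 reads) and Mbnl1, with medians of 535 and 634 CPM. No list was tested.

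Few cell type markers hosted an exonic circRNA of any kind in the table. Slc5a1, of the absorptive enterocyte list, had a circle of exons 2 to 5 at 986 ± 198 CPM, the 1 member among 20 genes (6 hosts of exonic circRNAs). Ikzf1, a lymphocyte factor gene, was the 1 among 14 immune genes (3 hosts), with 0 and 4 reads. No long-span sole circRNA came from the lists of intestinal stem (15 genes), proliferating (15), Paneth (7), goblet (8), enteroendocrine (10) or tuft cells (7), or from stroma, muscle, endothelium and glia (15). In the whole table the proliferating and goblet lists had 1 host of exonic circRNAs each. The stem, Paneth, enteroendocrine, tuft and stroma lists had 0, so the labelled stem cell identity cannot be checked from these files.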

How the data were processed

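Libraries came from total RNA of small intestinal crypts and were prepared with an MGI kit, per the labels' protocols. The submitters' processing notes name mm10. No source used here gives the aligner, the caller of circRNAs or any filter. The deposited counts are raw back-splice reads per circRNA and library, per the file headers. The deposited columns headed CPM hold a normalised signal, each count times 272 in replicate 1 and 233 in replicate 2. TMM factors computed with edgeR 4.0.16 gave the same constants.

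CPM here is each count over the listed total of its library (3546 and 4441), which is not the sequencing depth. Intervals and floors cover counting error only, since, with no molecular identifiers, several reads may stem from the same molecule. Each count was tested against the library totals with a two-sided exact binomial test, adjusted by Benjamini-Hochberg over 1132 circRNAs (threshold 0.05), after the test was tried on simulated data. Positions were matched to GENCODE M21, on the same build, and all 259 Ensembl identifiers of the members were found. A circle was at splice sites when its start was an inner exon start and its end an inner exon end of 1 transcript, and among several such transcripts coding ones were preferred, then those tagged basic, then those with most coding bases. Sequences come from GENCODE M21 transcripts and RefSeq miRNAs. Transcripts of neighbouring genes were aligned with blastn 2.17.0. Members and lists (9 of cell type markers, 11 of gene functions) were chosen with earlier results of these data known. Genes named are the 25 members with the highest mean, the 10 longest, 5 on each side of the minimum span, those past the test and up to 3 per list. A result that falls under this rule is not reported here. No column of sample values was left unused.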

Additional observations from a re-analysis of the deposited data

How the results depend on the processing

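The number of circles in both libraries (60) was 38 with a minimum span of 10000 bases, where 149 circles are left, and between 53 and 73 under the other alternatives tried. The median mean level (338 CPM) was 1043 CPM with at least 5 reads, which keeps 69 circles. This level was 450 CPM without replicate 1 and 564 CPM without replicate 2. Each of these is the level of 2 reads, the median count of the 226 circles in either library. The cause was not tested. The mean share of reads (14.6%) was 19.9% with a minimum span of 5000 bases and 9.54% with 10000, where the sets hold 278 and 149 circles. It was 12.9% when the host gene, not the name entry, had to occur once (207 circles), an alternative chosen after seeing the data, and 13.4 to 15.8% with 1 replicate left out. Circles at splice sites of 1 transcript numbered 219, and 68 with at least 5 reads, by construction of the smaller set. The 1 circle that differed between libraries, Slc28a2, stayed past the threshold under TMM scaling, with totals of shared circRNAs and with at least 5 reads (adjusted p from 0.0023 to 0.00957), and the count was 2 with a minimum span of 5000 bases, where the set is larger. TMM scaling moved the levels of the 25 leading circles by -3.53% to 2.22%, each within its SD. No paired analysis was possible because the series has 1 group. A median of 3 reads limits what can be said of most circles.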
